A study of Mus musculus with 9 samples.

Results

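The genes described here encode the channels, pumps and gap junctions that carry the electrical signal of the heart. They are 30 genes taken by name from a list of cardiac ion channel, ion pump and connexin genes, ordered by the current or the structure each serves. All 30 were measured, each by 1 probe set, among 30142 named genes on the array. The list holds 2 sodium channel genes, 4 calcium channel genes, 4 genes of the transient outward potassium current, 5 of the delayed rectifiers, 2 of the inward rectifier, 4 of the ATP-sensitive potassium channel, 1 background potassium channel, 3 pacemaker and cation channel genes, 3 connexins and 2 sodium pump subunits.

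Messenger RNA was measured on microarrays of whole hearts from immunodeficient nude mice, collected 6 weeks after treatment. Every heart, the controls and the sham heart included, had an infarct made by permanently tying off the left anterior descending artery, and only mice whose ejection fraction had dropped below 50% were treated, 3 weeks after the infarct. The 3 vesicle arrays came from hearts given the extracellular vesicles (membrane particles) that 500000 cardiovascular progenitor cells secrete in 48 hours. The 3 cell arrays came from hearts given 500000 of these cells, injected through the closed chest at 3 sites around the infarct with 10 µL at each. The 1 sham array came from an infarcted heart in which the needle was inserted 3 times with nothing injected, so it is not an uninjured heart. The 2 control arrays came from hearts given alpha-MEM culture medium. No uninfarcted heart is among the arrays used here. The titles also give an experiment number, whose meaning is not stated. Experiment 9 holds the first array of each group and the sham array, and experiment 1 holds vesicle arrays 2 and 3, cell arrays 2 and 3 and control array 2. Nothing in the labels says that each array is a separate mouse, so the p-values measure the spread between these arrays, which may be technical.

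Each heartbeat is an action potential in which sodium channels open first, calcium channels then hold the cell depolarised and trigger contraction, and a set of potassium channels returns it to rest. The mouse ventricle repolarises mainly through the transient outward current, carried by Kcnd2 and Kcnd3 channels with the accessory subunit Kcnip2, and through Kcna5. Connexins pass the impulse from cell to cell, and the sodium pump restores the gradients that all of these currents use. In failing hearts, loss of repolarising potassium currents and of the connexin Cx43 is a well known form of electrical remodelling.

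The deposited values were read as log2 expression values, on which a difference of 1 is a doubling. Levels of different genes are not compared with each other, because each probe set has its own response. Cardiomyocyte markers were bright on every array, led by Tnnt2 at 13.1 to 13.2 and Myh6 at 12.8 to 13.0, as the labelled tissue requires. Control array 2 held the highest of the 9 values for 24.5% of all genes, and the other 8 arrays for 6.36% to 14.9% each. Among the 30 members it was highest for 4. It is 1 of the 2 control arrays behind every difference from control. Vesicle array 3 stood apart in markers of lung. The log2 of the summed level of the 9 lung markers was 11.1 there and 8.41 to 8.80 on the other 8 arrays. Ager and Sftpb, the 2 brightest of the list, read 6.67 and 8.39 on vesicle array 3. On the other arrays they read 6.21 to 6.35 and 5.70 to 6.34. The surfactant gene Sftpc read 9.75 on vesicle array 3, against 6.35 on the sham array and 4.28 to 4.52 elsewhere. Many values are exact repeats: 18418 of 30142 genes (61.1%) and 15 of the 30 members hold the same value on 3 or more arrays, which narrows their apparent spread. In whole-heart RNA, fewer cells of a type and less RNA per cell cannot be told apart.

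Of the 30 genes, 16 lay on all 9 arrays above a floor set at the 95th percentile of that array's negative controls, which was 7.18 to 7.28 depending on the array. Another 12 lay below it on every array and are called dim here. Scn4b exceeded it on 2 arrays, cell array 1 and control array 1, and Gja1 on 1, vesicle array 1. On the other arrays both genes lay below that floor, so their differences are also partly near background. The bright members were Scn7a, Cacnb2, Cacna2d1, Kcnd2, Kcnip2, Kcna5, Kcnh2, Kcnj2, Kcnj11, Kcnj8, Abcc8, Abcc9, Kcnk3, Hcn2, Atp1b1 and Fxyd1. The dim members were Cacna1g, Cacna1h, Kcnd3, Kcna4, Kcnv2, Kcnq1, Kcne1, Kcnj12, Hcn4, Trpm4, Gja5 and Gjc1, and a small difference in one of them is a difference near background. The whole list varied little: the gap between a gene's lowest and highest array ran from 0.073 for Gjc1 to 1.01 for Scn4b.

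**Figure D1:**
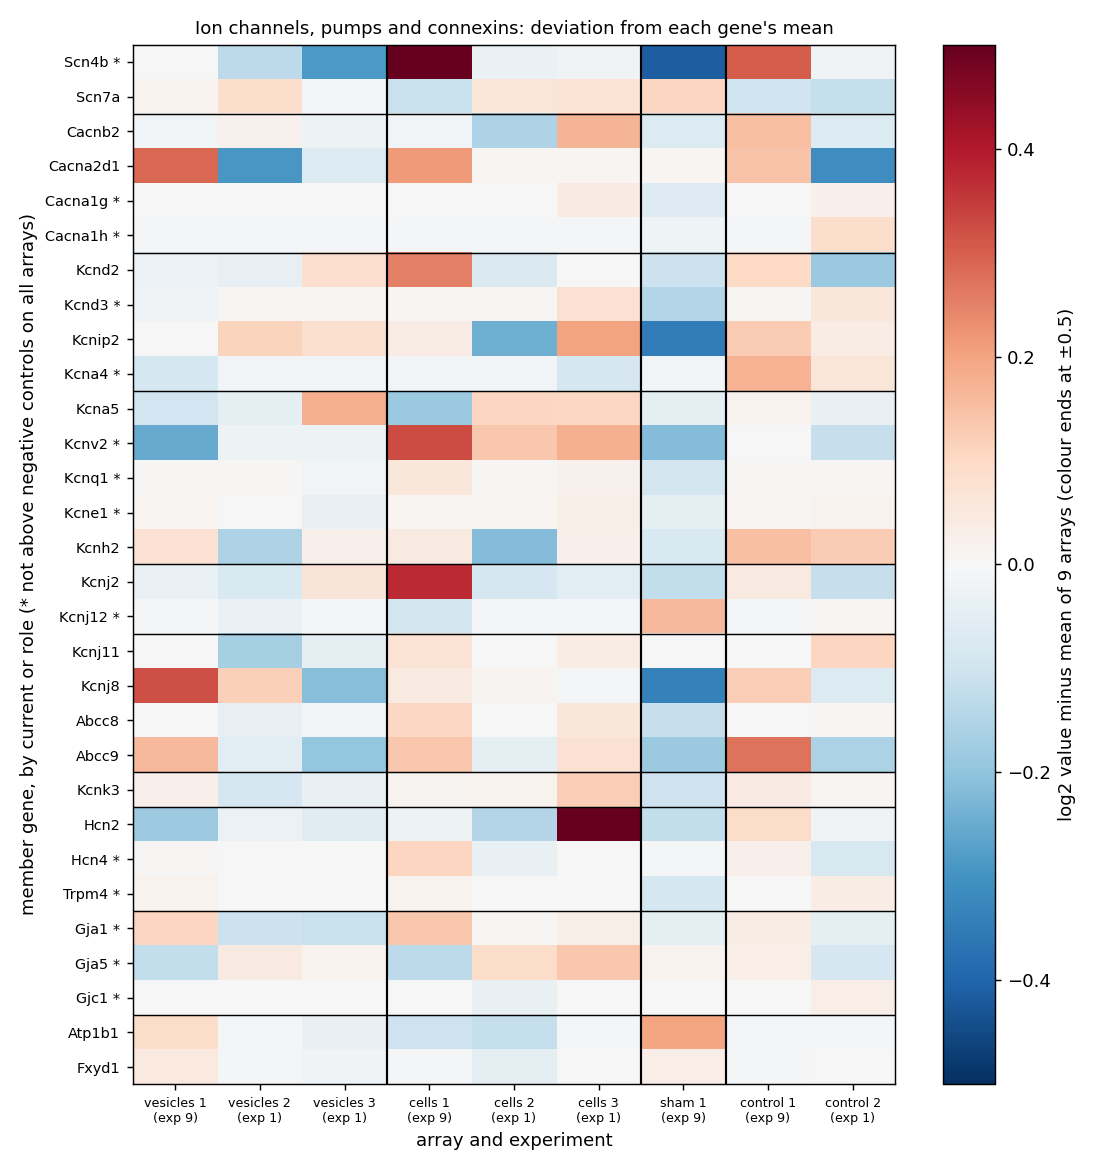
Deviation of each of the 30 genes from its own mean over 9 arrays, in log2 units, with genes down the page by current or role and arrays across, labelled with their experiment; an asterisk marks genes not above the negative controls on all arrays. The sham column is mostly below the gene means, with Scn4b, Kcnip2 and Kcnj8 at their lowest there, while Atp1b1 and Scn7a are at their highest.

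None of the 30 genes passed an adjusted p of 0.05 in any treatment comparison, and neither did any other gene. The percentage of all genes called was 0.0 for vesicles against control, 0.0 for cells against control and 0.0 for vesicles against cells. The smallest adjusted p over all genes in these comparisons was 0.235, 0.479 and 0.823 by limma with the experiment as a block. The 95% intervals of the members' differences, taken one by one, reached at most from -0.65 to 0.40 for vesicles minus control, from -0.45 to 0.56 for cells minus control and from -0.65 to 0.37 for vesicles minus cells. The lower bounds are those of Hcn2 in all 3 comparisons, and every other gene is bounded more tightly on that side. These are outer bounds over the list, and differences beyond them are outside every interval. Differences inside a gene's own interval could not be resolved with 3 vesicle, 3 cell and 2 control arrays. Single genes can be bounded far more tightly: for vesicles minus control the interval of Fxyd1 ran from -0.048 to 0.076.

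At an unadjusted p of 0.05, 1 of the 30 genes differed between vesicles and control, against 6.44% of all genes. For cells against control the count was 2 of 30, against 6.73% of all genes, and for vesicles against cells it was 4 of 30, against 4.34% of all genes. The first count lies below the share for all genes, the second at it and the third above it, and none of these p-values survives adjustment. Leaving out 1 array at a time moved the 3 counts over 1 to 4, 0 to 5 and 2 to 4. The first was 4 without control array 1 and 3 without cell array 1 or any 1 vesicle array, the second 5 without vesicle array 1 and 0 without cell array 3, and the third 2 without any 1 vesicle array. Without both vesicle array 3, which holds the lung transcripts, and cell array 3, the counts were 1, 0 and 2. Both treatments are set against the same 2 control arrays, so the first and second counts are not independent. Kcna4 is the member in the first count, Kcna4 and Kcnv2 are those in the second, and Kcnv2, Scn4b, Gja1 and Abcc8 are those in the third. With the VTS number of the titles as block in place of the experiment, Kcna4 and Kcnv2 left the first 2 counts and Kcnh2 alone was in each. With the experiment as block, the 3 counts among the 16 bright members were 0, 0 and 1, the last being Abcc8. Kcna4 and Kcnv2 are dim, and Scn4b and Gja1 lay below the floor on most arrays.

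The sodium channel genes are Scn4b, a beta subunit that shapes the opening and closing of the cardiac sodium channel, and Scn7a, an atypical sodium channel that senses extracellular sodium. Scn4b had the widest range of the list. It read 7.09, 6.96 and 6.81 on the vesicle arrays, 7.69, 7.06 and 7.08 on the cell arrays, 6.68 on the sham array, and 7.39 and 7.08 on the control arrays. The vesicle arrays were lower than the cell and control arrays of the same experiment in each case, although vesicle array 1 lay just above the experiment 1 controls and cells. The fitted vesicles minus cells difference was -0.32 ± 0.098 (SE, adjusted p = 0.920), made up of -0.60 in experiment 9 and -0.18 in experiment 1. Cell array 1 carried much of it, since without that array the difference was -0.20. The vesicles minus control difference was -0.22 ± 0.11 (adjusted p = 0.676), or -0.10 without vesicle array 1, and the cells minus control difference 0.11 ± 0.11. Scn7a read 8.20, 8.27 and 8.18 on the vesicle arrays, 8.07, 8.24 and 8.25 on the cell arrays, 8.29 on the sham array, and 8.08 and 8.06 on the control arrays. All 3 vesicle arrays were above both control arrays, while the cell arrays overlapped them. Its vesicles minus control difference was 0.13 ± 0.055 (adjusted p = 0.676), and cells minus control was 0.10 ± 0.055.

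Of the calcium channel genes, Cacnb2 and Cacna2d1 encode the beta and the alpha2-delta accessory subunits of the L-type channel, and Cacna1g and Cacna1h encode T-type channels known for pacemaker tissue and the fetal heart. Cacna2d1 read 9.27, 8.70 and 8.92 on the vesicle arrays, 9.20, 9.0 and 9.0 on the cell arrays, 9.0 on the sham array, and 9.13 and 8.68 on the control arrays. The injected arrays of experiment 9 were all higher than those of experiment 1, and within experiment 1 the control array was the lowest. Cells minus control was 0.22 ± 0.095 (adjusted p = 0.682), of which 0.071 was seen in experiment 9 and 0.32 in experiment 1, and vesicles minus control was 0.12 ± 0.095. Cacnb2 read 8.21, 8.25 and 8.21 on the vesicle arrays, 8.21, 8.08 and 8.40 on the cell arrays, 8.16 on the sham array, and 8.38 and 8.16 on the control arrays. Here the groups overlapped, and the 2 treatments differed from control by -0.040 ± 0.11 for vesicles and -0.033 ± 0.11 for cells. The T-type genes were dim and nearly flat: Cacna1g ranged over 6.39 to 6.5 and Cacna1h over 5.79 to 5.90. For Cacna1h, 6 of 9 arrays hold the same value and control array 2 holds the highest. When control array 1 was left out, this gene alone of the 30 passed the test, at -0.098 for vesicles minus control (limma adjusted p = 0.0443) and -0.098 for cells minus control (adjusted p = 0.0437), a comparison that rests on 1 control array.

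The transient outward genes showed no treatment difference past the test. Kcnd2, the main pore subunit of the fast transient outward current in mouse ventricle, read 8.43, 8.42 and 8.54 on the vesicle arrays, 8.71, 8.39 and 8.46 on the cell arrays, 8.35 on the sham array, and 8.56 and 8.27 on the control arrays. The groups overlapped: control array 1 was among the higher arrays and control array 2 was the lowest of all. Vesicles minus control was 0.075 ± 0.098 and cells minus control 0.13 ± 0.098. Kcnip2, the calcium-binding subunit that brings these channels to the membrane, read 9.28, 9.40 and 9.37 on the vesicle arrays, 9.33, 9.04 and 9.49 on the cell arrays, 8.94 on the sham array, and 9.41 and 9.33 on the control arrays. The sham array was lowest, and among the injected hearts cell array 2 was the low one. The differences were -0.020 ± 0.14 for vesicles minus control and -0.083 ± 0.14 for cells minus control. Kcna4, the pore of the slow transient outward current, was dim on every array. It read 4.04, 4.11 and 4.11 on the vesicle arrays, 4.11, 4.11 and 4.04 on the cell arrays, 4.11 on the sham array, and 4.30 and 4.18 on the control arrays. Both control arrays were above every other array, and 5 arrays share 1 identical value. Vesicles minus control was -0.15 ± 0.048 (limma adjusted p = 0.676) and cells minus control -0.15 ± 0.048 (limma adjusted p = 0.682), at a level far below that floor. Kcnd3, the second pore gene of the fast current, was also dim, ranged over 6.35 to 6.57 and differed by -0.038 ± 0.026 for vesicles minus control and -0.0066 ± 0.026 for cells minus control.

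Among the delayed rectifier genes, Kcna5 carries the ultra-rapid component of the mouse heart, Kcnh2 the rapid component and Kcnq1 with its subunit Kcne1 the slow one. Kcnv2 encodes a silent subunit that joins pore subunits and modifies them. Kcna5 read 8.08, 8.13 and 8.36 on the vesicle arrays, 7.99, 8.29 and 8.28 on the cell arrays, 8.14 on the sham array, and 8.20 and 8.14 on the control arrays. The groups overlapped entirely, with vesicles minus control at -0.0019 ± 0.10 and cells minus control at -0.0070 ± 0.10. Kcnv2 read 5.36, 5.59 and 5.59 on the vesicle arrays, 5.94, 5.74 and 5.79 on the cell arrays, 5.39 on the sham array, and 5.61 and 5.5 on the control arrays. All 3 cell arrays lay above every vesicle, sham and control array, although the probe set was dim throughout. Vesicles minus cells was -0.31 ± 0.089 (limma adjusted p = 0.920), with -0.58 in experiment 9 and -0.18 in experiment 1, and it was -0.19 without vesicle array 1. Cells minus control was 0.27 ± 0.10 (limma adjusted p = 0.682), with 0.33 in experiment 9 and 0.27 in experiment 1, and vesicles minus control was -0.040 ± 0.10. Kcnh2 ranged over 7.88 to 8.24, with both control arrays above all others, and differed by -0.14 ± 0.091 for vesicles minus control (adjusted p = 0.700) and -0.17 ± 0.091 for cells minus control (adjusted p = 0.683). Kcnq1, at 6.84 to 6.99, and Kcne1, at 5.25 to 5.33, were dim and differed from control by no more than 0.026 in either treatment.

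The inward rectifier genes Kcnj2 and Kcnj12 set the resting potential of the ventricle. Kcnj2 read 7.42, 7.38 and 7.52 on the vesicle arrays, 7.83, 7.37 and 7.40 on the cell arrays, 7.33 on the sham array, and 7.50 and 7.34 on the control arrays. Cell array 1 was the only high array, and the other values overlapped across groups. Vesicles minus control was 0.053 ± 0.12 and cells minus control 0.15 ± 0.12, of which 0.33 came from experiment 9 and 0.046 from experiment 1. Kcnj12 was dim, ranged over 6.32 to 6.58 with the sham array highest, and differed by -0.021 ± 0.028 for vesicles minus control and -0.040 ± 0.028 for cells minus control.

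The ATP-sensitive potassium channel, which opens when energy runs low, pairs a pore (Kcnj11 in cardiomyocytes, Kcnj8 in vascular smooth muscle and pericytes) with a sulphonylurea receptor (Abcc8 or Abcc9). Kcnj11 read 8.04, 7.87 and 7.99 on the vesicle arrays, 8.11, 8.04 and 8.08 on the cell arrays, 8.04 on the sham array, and 8.04 and 8.15 on the control arrays. Vesicle arrays 2 and 3 were the lowest, and vesicle array 1 held the same value as 3 other arrays. Vesicles minus control was -0.12 ± 0.061 (adjusted p = 0.676), with 0 in experiment 9 and -0.22 in experiment 1, and cells minus control was -0.014 ± 0.061. Kcnj8 ranged over 7.25 to 7.92, with vesicle array 1 highest and the sham array lowest, and differed by 0.083 ± 0.12 for vesicles minus control and 0.022 ± 0.12 for cells minus control. Abcc9 read 10.74, 10.52 and 10.38 on the vesicle arrays, 10.71, 10.53 and 10.65 on the cell arrays, 10.39 on the sham array, and 10.85 and 10.42 on the control arrays. The 3 injected arrays of experiment 9 were the highest, whatever the treatment. Vesicles minus control was -0.044 ± 0.087 and cells minus control 0.041 ± 0.087. Abcc8 read 7.69, 7.65 and 7.68 on the vesicle arrays, 7.79, 7.69 and 7.75 on the cell arrays, 7.58 on the sham array, and 7.69 and 7.70 on the control arrays. Cell arrays 1 and 3 were the highest and the sham array was lowest, all within a range of 0.22. Vesicles minus cells was -0.071 ± 0.025 (limma adjusted p = 0.920), and cells minus control was 0.056 ± 0.028.

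The remaining channel genes were Kcnk3, a background potassium channel known as TASK-1, Hcn2 and Hcn4, the pacemaker channels, and Trpm4, a calcium-activated cation channel. Kcnk3 ranged over 9.83 to 10.05 and differed by -0.054 ± 0.049 for vesicles minus control and 0.029 ± 0.049 for cells minus control. Hcn2 ranged over 7.65 to 8.33 and had the least precise difference of the list, 0.056 ± 0.20 for cells minus control and -0.14 ± 0.20 for vesicles minus control. Cell array 3 was the one high array, and without it cells minus control was -0.12. Hcn4, the main channel of the sinus node, read 6.51 on each of the 3 vesicle arrays, 6.61, 6.47 and 6.51 on the cell arrays, 6.5 on the sham array, and 6.53 and 6.43 on the control arrays. This dim gene overlapped between groups, with vesicles minus control at 0.042 ± 0.034 and cells minus control at 0.064 ± 0.034. Trpm4, at 6.86 to 6.99, differed from control by -0.011 ± 0.018 for each treatment.

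The connexin genes are Gja1, Cx43 of the working ventricle, Gja5, Cx40 of the atria, the conduction system and arterial endothelium, and Gjc1, Cx45 of the nodes. Gja1 read 7.22, 7.01 and 7.0 on the vesicle arrays, 7.25, 7.12 and 7.14 on the cell arrays, 7.06 on the sham array, and 7.15 and 7.07 on the control arrays. Within each experiment the cell arrays were the highest, and in experiment 1 the vesicle arrays were the lowest. Vesicles minus cells was -0.094 ± 0.031 (limma adjusted p = 0.920), with -0.028 in experiment 9 and -0.13 in experiment 1, and cells minus control was 0.085 ± 0.035 (adjusted p = 0.682). Gja5 read 6.39, 6.56 and 6.53 on the vesicle arrays, 6.38, 6.61 and 6.65 on the cell arrays, 6.53 on the sham array, and 6.55 and 6.43 on the control arrays. Its groups overlapped, with vesicles minus control at -0.014 ± 0.083 and cells minus control at 0.038 ± 0.083. Gjc1 was dim, ranged over 6.59 to 6.67, and held the same value on 7 of 9 arrays.

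The sodium pump is represented by Atp1b1, its beta1 subunit, and Fxyd1, phospholemman, the small membrane protein that restrains the pump in heart until it is phosphorylated. Atp1b1 read 10.92, 10.82 and 10.79 on the vesicle arrays, 10.72, 10.71 and 10.82 on the cell arrays, 11.02 on the sham array, and 10.82 on both control arrays. The sham array was the highest, and cell arrays 1 and 2 were the lowest. Vesicles minus cells was 0.094 ± 0.046 (adjusted p = 0.920), vesicles minus control 0.029 ± 0.052 and cells minus control -0.065 ± 0.052. Fxyd1 stayed within 11.03 to 11.13 and differed by 0.014 ± 0.024 for vesicles minus control and -0.011 ± 0.024 for cells minus control, the narrowest errors among the bright members.

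**Figure D2:**
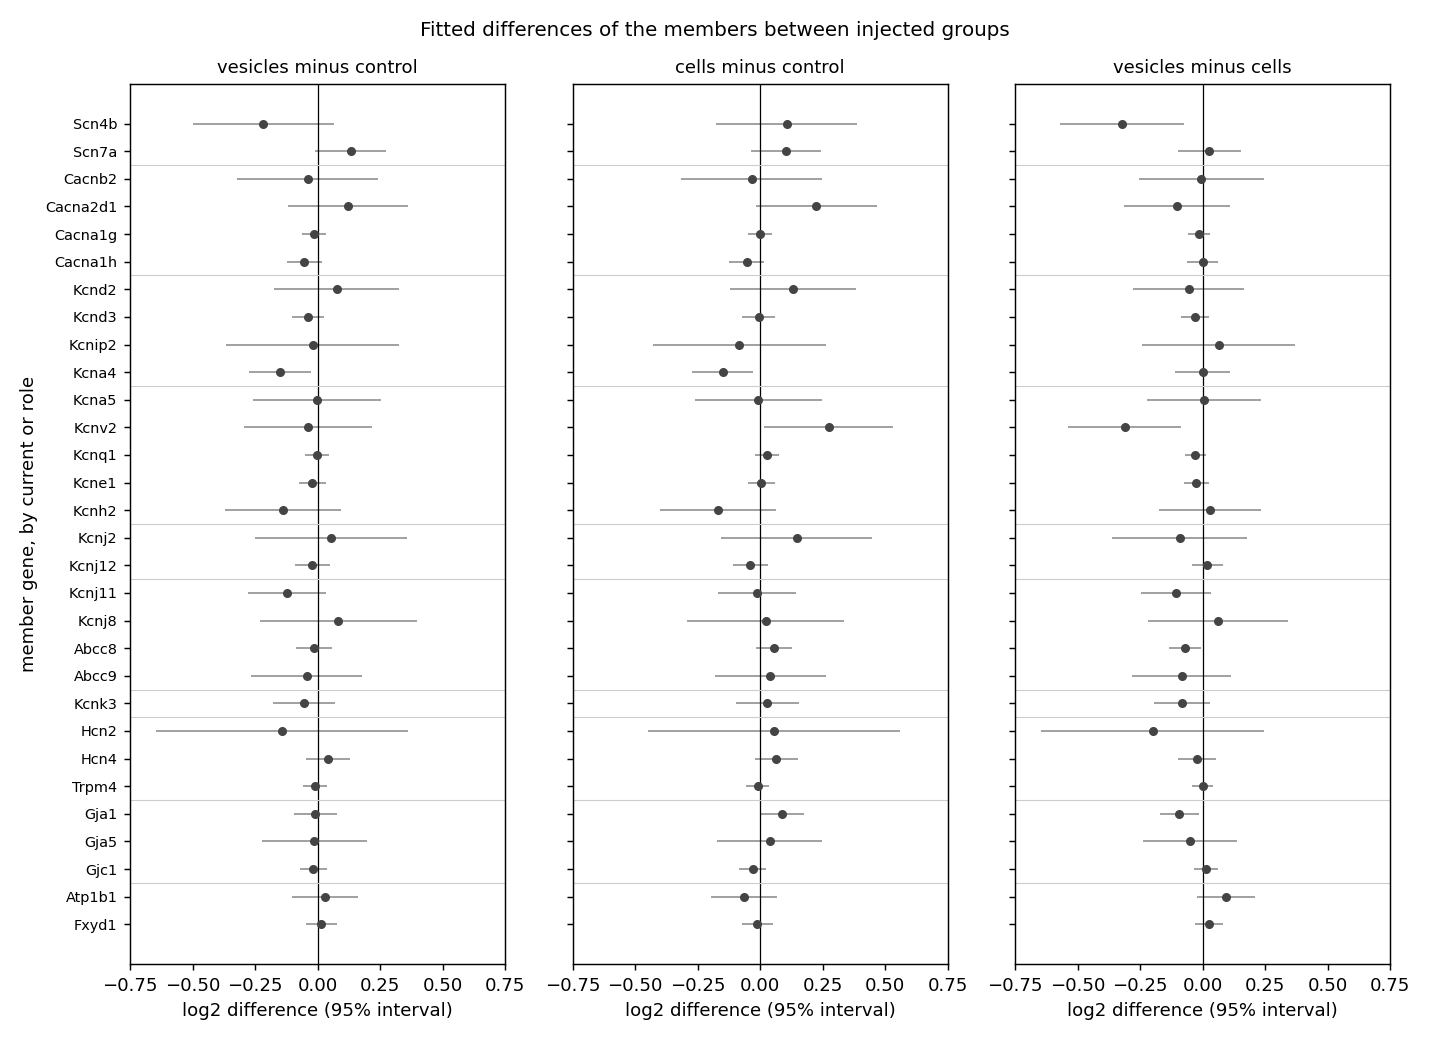
Fitted log2 differences of the 30 genes (points) with 95% intervals (bars), genes down the page by current or role, in 3 panels for vesicles minus control, cells minus control and vesicles minus cells. The interval leaves out 0 for 1, 2 and 4 genes in the 3 panels, and the widest interval is that of Hcn2.

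Over the whole list, 8 of 30 genes stood higher and 22 lower in vesicles than in control, with a median difference of -0.016, beside -0.012 over all genes, of which 39.2% stood higher. Among the 16 bright members 7 stood higher and 9 lower, so most of the lean came from members near background. For cells against control, 16 stood higher and 14 lower, with a median of 0.014, beside -0.0064 over all genes, of which 44.2% stood higher. In vesicles against cells, 10 stood higher and 20 lower, with a median of -0.024, beside -0.00070 over all genes, of which 46.0% stood higher. The bright members split 9 higher and 7 lower for cells against control, and 7 higher and 9 lower for vesicles against cells. The direction in the 2 experiments was the same for 10 of the 30 genes in vesicles minus control, 14 in cells minus control and 12 in vesicles minus cells, or 33.3%, 46.7% and 40.0%. Over all genes these shares were 41.8%, 39.5% and 41.9%, with tied values counted as not the same.

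For 5 genes the injected arrays were ordered by experiment number, whatever the treatment, but no difference between the experiments passed the adjusted test. In the fit of experiment 9 against experiment 1 the percentage of all genes called was 0.0, and the smallest adjusted p was 0.212. At an unadjusted p of 0.05, 5 of the 30 genes differed, against 12.8% of all genes. These were Gja1, Cacna2d1, Scn4b, Abcc9 and Hcn4, all higher in experiment 9. For the same 5 genes every injected array of experiment 9 lay above all 5 arrays of experiment 1, which was so for 4.18% of all genes and for 13.0% of genes above the negative controls on every array. Among the 16 bright members 2 showed this order, Cacna2d1 and Abcc9, close to the share of all such bright genes. Of 78 other ion transport and intercalated disc genes, 9 showed it (11.5%). In the same limma fit 20 of those 78 had an unadjusted p under 0.05. No member showed the opposite order, which 2.74% of all genes did.

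Scn4b averaged 7.39 ± 0.30 on the 3 injected arrays of experiment 9 and 7.0 ± 0.12 on the 5 of experiment 1 (SD), a fitted difference of 0.39 ± 0.089 (adjusted p = 0.290), or 0.25 without cell array 1. Cacna2d1 averaged 9.20 ± 0.072 in experiment 9 and 8.86 ± 0.16 in experiment 1, a difference of 0.37 ± 0.076 (adjusted p = 0.269). Abcc9 averaged 10.77 ± 0.073 in experiment 9 and 10.50 ± 0.11 in experiment 1, a difference of 0.27 ± 0.070 (adjusted p = 0.316). Of the gap junction and pacemaker genes, Gja1 and Hcn4 showed smaller shifts of the same sign, while Gja5, Gjc1 and Hcn2 stood at -0.11, -0.0018 and -0.091. Gja1 averaged 7.21 ± 0.051 in experiment 9 and 7.07 ± 0.064 in experiment 1, a difference of 0.14 ± 0.028 (adjusted p = 0.260), and Hcn4 differed by 0.078 ± 0.027 (adjusted p = 0.379). The sham array, also of experiment 9, did not follow them: it lay within or below the experiment 1 values for all 5 genes. Among the injected arrays, marker levels moved with the experiment number too. The log2 of the summed cardiomyocyte markers was 15.39 to 15.40 on the injected arrays of experiment 9 and 15.31 to 15.34 on those of experiment 1, with 15.35 on the sham array. The summed macrophage markers were 10.74 to 10.82 on the injected arrays of experiment 9, 11.01 to 11.45 in experiment 1 and 11.04 on the sham array. They were led by Lyz2 and Mrc1, and 5 of the 10 were above the negative controls on no array. Summed atrial markers were 13.34 to 13.56 on the injected arrays of experiment 9, 13.59 to 13.71 in experiment 1 and 13.73 on the sham array. Fibroblast markers, led by Dcn and Dpt, overlapped at 12.30 to 12.59 on the injected arrays of experiment 9 and 12.50 to 12.71 in experiment 1, with all 9 above the negative controls. So the summed cardiomyocyte, macrophage and atrial markers were each separated by experiment number on the injected arrays. The sham array, also of experiment 9, lay within the experiment 1 range for macrophage markers and above it for atrial markers. The part of these markers in the 5 differences was not tested.

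**Figure D3:**
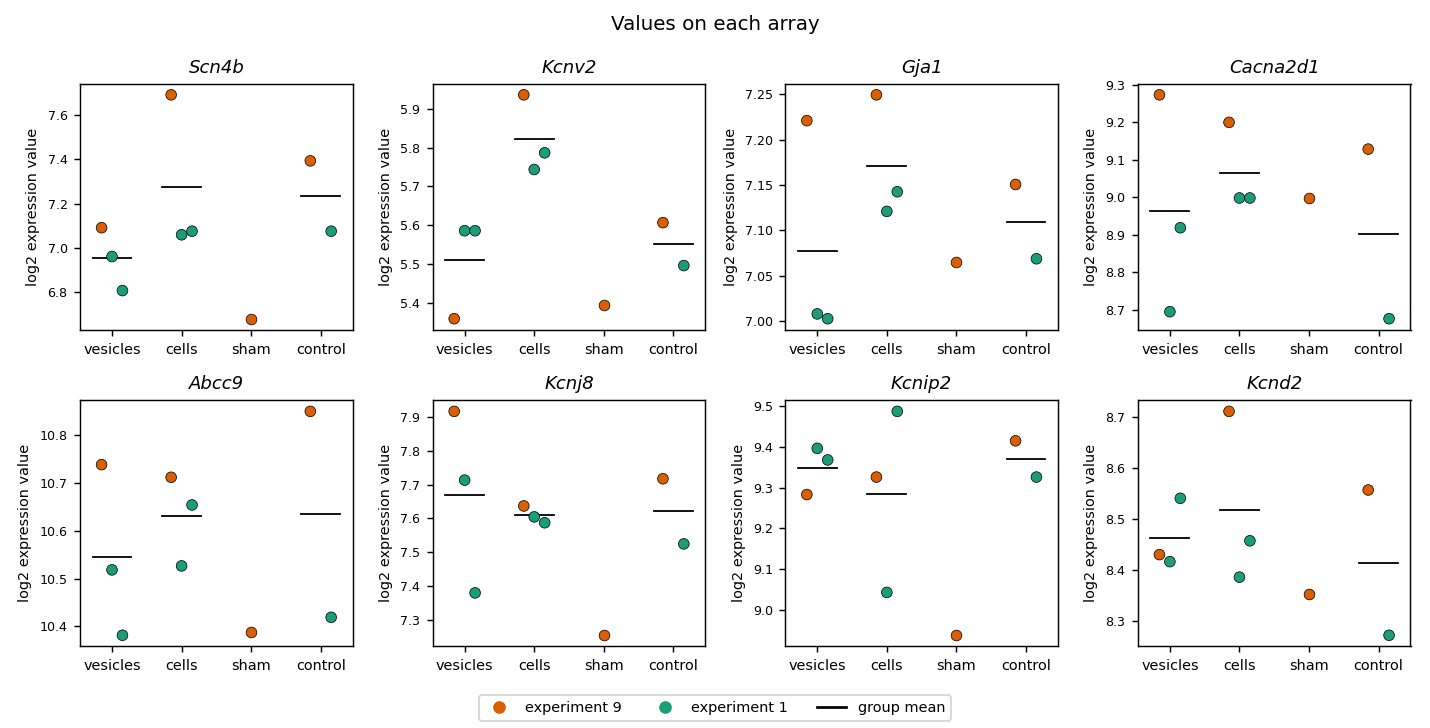
Log2 expression values of 8 genes on every array, grouped as vesicles, cells, sham and control, with experiment 9 in orange, experiment 1 in green and a line at the mean of groups with over 1 array. Scn4b, Cacna2d1, Gja1 and Abcc9 have their injected experiment 9 arrays above their experiment 1 arrays, and Scn4b, Kcnj8 and Kcnip2 have their lowest value on the sham array.

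The sequence before the start of the 4 genes with the lowest p in that comparison is shown to let a reader see how unlike they are. Each runs 250 bases before to 50 bases after the RefSeq start, 5′ to 3′ on the gene's strand, in build GRCm38.p6, at chr9:45138374-45138673 (plus strand) for Scn4b, chr5:15934441-15934740 (plus) for Cacna2d1, chr10:56377050-56377349 (plus) for Gja1 and chr6:142702225-142702524 (minus) for Abcc9. Capitals mark matches on either strand to the GC box GGGCGG, the GATA motif AGATAA, the MEF2 motif or the serum response factor CArG box, and where matches overlap they run together.
Scn4b: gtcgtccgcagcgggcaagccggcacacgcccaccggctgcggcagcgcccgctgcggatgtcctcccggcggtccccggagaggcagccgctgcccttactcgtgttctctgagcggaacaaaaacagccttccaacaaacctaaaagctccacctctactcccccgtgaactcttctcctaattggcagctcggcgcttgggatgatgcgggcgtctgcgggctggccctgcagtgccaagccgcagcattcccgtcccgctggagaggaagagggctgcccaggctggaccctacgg
Cacna2d1: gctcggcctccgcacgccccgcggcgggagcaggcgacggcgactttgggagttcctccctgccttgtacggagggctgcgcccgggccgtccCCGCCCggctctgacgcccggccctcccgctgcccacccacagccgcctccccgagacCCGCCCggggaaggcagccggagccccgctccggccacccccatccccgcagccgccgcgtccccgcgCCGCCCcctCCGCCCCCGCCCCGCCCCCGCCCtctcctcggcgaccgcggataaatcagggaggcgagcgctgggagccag
Gja1: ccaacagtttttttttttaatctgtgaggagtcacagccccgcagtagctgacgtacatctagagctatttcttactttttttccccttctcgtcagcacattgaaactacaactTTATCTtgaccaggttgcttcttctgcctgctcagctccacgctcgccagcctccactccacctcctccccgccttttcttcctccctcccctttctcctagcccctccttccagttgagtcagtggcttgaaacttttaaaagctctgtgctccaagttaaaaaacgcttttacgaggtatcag
Abcc9: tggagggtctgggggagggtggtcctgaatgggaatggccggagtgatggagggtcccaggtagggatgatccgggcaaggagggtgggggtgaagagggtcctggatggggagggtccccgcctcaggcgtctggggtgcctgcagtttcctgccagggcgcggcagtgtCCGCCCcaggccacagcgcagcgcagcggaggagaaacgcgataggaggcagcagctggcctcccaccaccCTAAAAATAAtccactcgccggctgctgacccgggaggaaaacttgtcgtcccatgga
The Cacna2d1 window held 7 GC boxes and 80% G or C, the Abcc9 window 1 MEF2 match and 1 GC box, the Gja1 window 1 GATA match at 47.7% G or C, and the Scn4b window none of the 4 motifs. RefSeq promoters were found for 20 of the 30 genes, 21 windows in all. A GC box was in 13 of these 21 windows (61.9%) and in 35.9% of 32544 windows of the same length over all genes. A MEF2 match was in 1 of 21, against 3.16% of all windows, a GATA match in 2 of 21, against 11.2%, and a CArG box in 0 of 21, against 1.64%. Such a match is a description of letters and shows no binding.

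The sham array was the array on which the list stood furthest from the rest, and it has no replicate, so its values carry no test. It held the lowest of the 9 values for 12 of the 30 genes (40.0%), while it was lowest for 9.92% of all genes. Among the 16 bright members it was lowest for 5, against 9.31% of all bright genes, and among 78 other ion transport and intercalated disc genes it was lowest for 9. The 12 were Scn4b, Cacna1g, Cacna1h, Kcnd3, Kcnip2, Kcnq1, Kcne1, Kcnj2, Kcnj8, Abcc8, Kcnk3 and Trpm4. For Kcnj2, Kcne1 and Cacna1h the margin below the next array was 0.011 or less, and for the other 9 genes it was 0.019 to 0.13. With each array centred on its median the count was 9 of 30, beside 7.72% of all genes, and it was 12 with quantile normalization. The sham array was the highest of the 9 for 3 genes, Scn7a, Kcnj12 and Atp1b1 (10.0%), and for 7.56% of all genes.

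Set against control array 1, the medium-injected heart of the same experiment, the sham array was lower for 24 of the 30 genes, with a median difference of -0.11. Over all genes it was lower for 41.0%, with a median of 0, and for 31 of the 78 other genes. Scn4b read 6.68 on the sham array and 7.39 on control array 1, a difference of -0.71 and the largest of the list. Its sham value lay below the negative control floor of that array. Kcnip2 read 8.94 on the sham array and 9.41 on control array 1, and Kcnj8 read 7.25 on the sham array and 7.72 on control array 1, differences of -0.48 and -0.46. The sham value of Abcc9, 10.39, was also lower than the 10.85 of control array 1 but lay within the range of the experiment 1 arrays. Genes of several currents were low together on this array, for which no test can be given. In the other direction, Atp1b1 differed by 0.20, Scn7a by 0.21 and Kcnj12 by 0.17. Other cell types were measured beside these values. Endothelial markers were lowest on the sham array too, at a log2 summed level of 12.37 against 12.42 to 12.61 on the other 8 arrays, with Cdh5 and Eng leading and 8 of 9 above the negative controls throughout, although Cdh5 itself was lower on control array 2 (9.98) than on the sham array (10.13). By summed level, fibroblast and atrial markers were highest on the sham array. They reached 12.714 against at most 12.706 elsewhere and 13.73 against at most 13.71. The atrial sum is led by Nppa, at 13.37 on the sham array. The mean deviation of a list's genes from their own averages weights each gene equally. By it the sham array stood at -0.11 for atrial markers, below the 0.025 to 0.25 of the experiment 1 arrays. For fibroblast markers it stood at 0.15, below the 0.17 of vesicle array 2. Cardiomyocyte markers, at 15.35, were within the range of the other arrays, and mural markers, led by Des and Rgs5, were at 12.80 on the sham array and on both control arrays. The part of these cell types in the sham values was not tested.

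**Figure D4:**
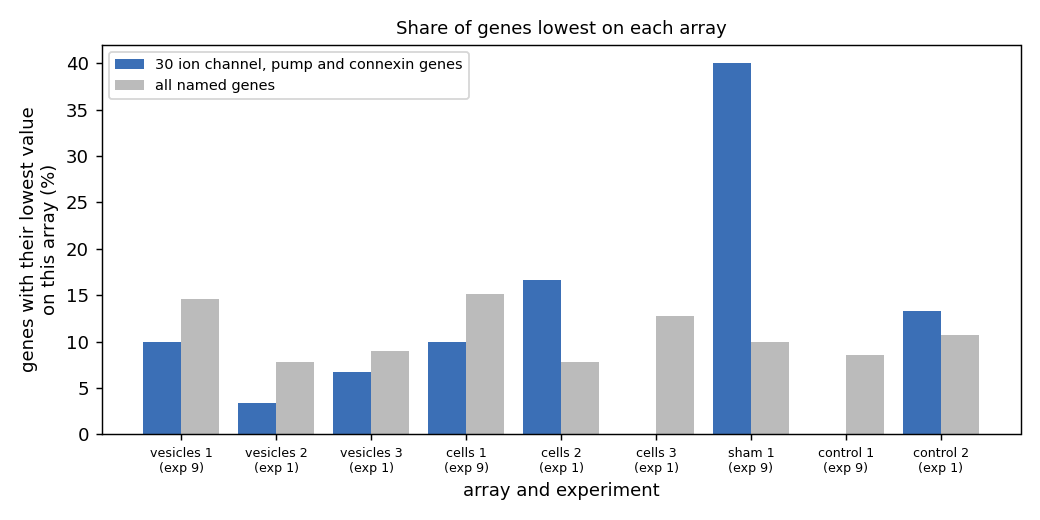
Percentage of genes whose lowest value falls on each array, as bars from 0, for the 30 ion channel, pump and connexin genes (blue) and for all named genes (grey). The sham array holds the lowest value for 40.0% of the 30 genes and 9.92% of all genes, the widest gap of the 9 arrays.

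Beyond the list, 78 other ion transport and intercalated disc genes were measured. At an unadjusted p of 0.05, 9 of them differed in vesicles minus control (7 higher, 2 lower), 7 in cells minus control (4 higher, 3 lower) and 5 in vesicles minus cells (3 higher, 2 lower), beside the 6.44%, 6.73% and 4.34% of all genes given above, and none passed the adjusted test. Over all genes such differences were 576 higher and 1366 lower, 506 higher and 1523 lower, and 527 higher and 782 lower in the 3 comparisons. Cacna1c, the pore of the L-type channel, stood at 0.059 ± 0.016 for vesicles minus control and 0.040 ± 0.016 for cells minus control (adjusted p = 0.676 and 0.682), within 10.02 to 10.14 over all arrays. Kcnj3, an atrial pore of the acetylcholine-activated potassium channel, read 8.38, 8.28 and 8.34 on the vesicle arrays, 8.58, 8.5 and 8.53 on the cell arrays, 7.96 on the sham array, and 8.45 and 8.13 on the control arrays. All 3 cell arrays of Kcnj3 lay above every other array, and the sham array was the lowest. Its cells minus control difference was 0.27 ± 0.066 (adjusted p = 0.682) and its vesicles minus cells difference -0.20 ± 0.058 (adjusted p = 0.920). Kcnj5, the partner pore of Kcnj3, differed by -0.085 ± 0.022 for vesicles minus cells (adjusted p = 0.920) and by 0.20 ± 0.020 for experiment 9 minus experiment 1 (adjusted p = 0.212). Trpm7, a magnesium-permeable channel with a kinase domain, differed by 0.10 ± 0.024 for vesicles minus cells and by 0.15 ± 0.022 between the experiments (adjusted p = 0.222). Both genes were among those ordered by experiment number. Slc8a1, the sodium-calcium exchanger, differed by -0.050 ± 0.076 for vesicles minus control and 0.017 ± 0.076 for cells minus control. The dim genes Kcns3, a silent potassium channel subunit, and Cacng4, a calcium channel gamma subunit, stood at -0.14 ± 0.029 for vesicles minus control and -0.098 ± 0.022 for cells minus control. Atrial markers, led by Nppa and Pam, spanned 13.56 to 13.65 on the vesicle arrays, 13.34 to 13.71 on the cell arrays, 13.73 on the sham array and 13.38 to 13.61 on the control arrays, with 4 of 11 above the negative controls throughout, and their part in the Kcnj3 values was not tested.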

How the data were processed

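Per the labels' protocols, Trizol-extracted RNA of whole frozen hearts was hybridised as biotin-labelled cDNA to Affymetrix whole-transcript arrays. The values as deposited, 1 per probe set and array, were read as log2 from their range. The log base, and how the authors corrected background and normalized, are unstated. The submitters' processing notes name Partek, with neither a role nor a version. Such values can hide a change shared by most genes. Arrays have no read depth, and their number limits the precision.

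Of 80202 probe sets, 32750 are in the table of gene names, 30604 with 1 symbol and 2146 with several, which were left out. Symbols were updated through Entrez numbers (22818 matched, 827 changed) with RefSeq of GRCm38.p6, and the probe set with the highest mean was kept per gene, leaving 30142 genes. Differences were fitted with lmFit and eBayes of limma 3.58.1 in R 4.3.3 on the 8 arrays of the vesicle, cell and control groups, with treatment and experiment number as terms and 4 residual degrees of freedom. Tests were two-sided, with Benjamini-Hochberg adjustment over all 30142 genes and a threshold of 0.05. A ± gives the standard error unless marked SD. The sham array was not fitted. Array numbers within a group are in accession order, and no pairing was taken from them. They coincide with the VTS number in the titles (array 1 is VTS 3, array 2 VTS 1 and array 3 VTS 2), whose meaning is not stated and which served as an alternative block.

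Per-array values are given for the 4 members with the lowest unadjusted p in each comparison. They are also given for 12 members taken in any case, some of which are in both sets. Of 78 other genes, the 2 with the lowest p per comparison are named, with Cacna1c and Slc8a1 in any case. Of the marker lists whose genes are named, the 2 brightest are given. Sftpc is a further lung marker outside this rule. The members and lists were chosen with earlier results of these data known. The glia, fat and skeletal muscle marker lists, summed as log2, spanned 7.71 to 7.80, 7.43 to 7.53 and 12.31 to 12.70, and fibroblast markers 12.30 to 12.71. The fit was run on simulated data with planted changes, normal noise, and no tied values or experiment effect. That check covers the mean estimates only, and does not show how often a change would be called in these data. Alternatives covered the block, normalization, dim genes, probe set rule, prior, sham in the fit and each array left out.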

Additional observations from a re-analysis of the deposited data

Results flagged for a closer look

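Several of the 16 bright genes differed from the comparison group in opposite directions in experiments 9 and 1, with every array on its side. These opposite signs were not tested as an interaction. Experiment 9 holds 1 array per group, so its direction there is 1 array against 1. For both treatments against control the counts lie near the share over all bright genes. For vesicles minus control this was so for 5 of 16 genes, beside 1515 of the 6070 genes of the array above the negative controls on all arrays. Cacnb2 stood at -0.17 in experiment 9 and 0.067 in experiment 1, Kcnd2 at -0.13 in experiment 9 and 0.21 in experiment 1, Kcnip2 at -0.13 in experiment 9 and 0.056 in experiment 1, Kcnj2 at -0.077 in experiment 9 and 0.11 in experiment 1, and Fxyd1 at 0.053 in experiment 9 and -0.013 in experiment 1. For cells minus control it was so for 6 of 16 genes, beside 31.5% of bright genes. Scn7a stood at -0.012 in experiment 9 and 0.18 in experiment 1, Kcna5 at -0.20 in experiment 9 and 0.14 in experiment 1, Kcnj11 at 0.069 in experiment 9 and -0.090 in experiment 1, Kcnj8 at -0.081 in experiment 9 and 0.071 in experiment 1, Abcc9 at -0.14 in experiment 9 and 0.17 in experiment 1, and Kcnk3 at -0.027 in experiment 9 and 0.060 in experiment 1. In vesicles minus cells it was so for 3 of 16 genes, beside 10.7% of bright genes, with Cacna2d1 at 0.073 in experiment 9 and -0.19 in experiment 1, Abcc9 at 0.026 in experiment 9 and -0.14 in experiment 1, and Kcnk3 at 0.014 in experiment 9 and -0.13 in experiment 1.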

How the results depend on the processing

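Every title carries the same replicate number, so the only number that could match arrays across groups is the VTS number, whose meaning is not stated. With the VTS number of the titles as a replicate block, no gene was called in any comparison, and Kcnh2 was the only member at an unadjusted p of 0.05 in either treatment against control. Dropping either control array leaves a lone control array, whose spread is then taken from the treated groups. In that setting 200 genes were called higher and 623 lower in vesicles minus control and 207 higher and 694 lower in cells minus control, with 1 member (Cacna1h) in each; leaving out any other array called 0 genes in these 2 comparisons. In vesicles minus cells and between the experiments, leaving out 1 array called 0 genes. With genes tied on 3 or more arrays removed, a setting added after seeing the data, 2 genes were called lower in experiment 9. The median difference of the members moved with the scaling: centring each array on its median gave 0.0053 for vesicles minus control, 0.0432 for cells minus control and 0.0520 for experiment 9 minus experiment 1. The tied-value filter gave medians of 0.0408 for cells minus control, -0.0557 for vesicles minus cells and 0.0467 between the experiments, and bright genes alone gave 0.0322 between the experiments. Leaving out both vesicle array 3 and cell array 3, also added after seeing the data, gave -0.0111 for cells minus control and 0.0332 between the experiments. Leaving out single arrays moved the medians over -0.0204 to -0.0134 for vesicles minus control, -0.0111 to 0.0307 for cells minus control, -0.0421 to -0.0130 for vesicles minus cells and 0.0125 to 0.0332 between the experiments. Among the members' own differences, a value counted as moved when it shifted by more than its standard error: 32 of 511 did in vesicles minus control, 39 of 511 in cells minus control, 23 of 511 in vesicles minus cells and 42 of 481 between the experiments, and 44, 45, 37 and 39 changed sign, all of them not called. The cause was not tested in any of these cases.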
